A study of Mus musculus with 4 samples.

Results

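The regions described here are the 1990 ATAC-seq peaks that the authors annotated as lying in a 3' untranslated region (3' UTR), out of 80881 peaks in all. Within the table they were taken by that annotation alone, not by level or difference. The cells were a KP mouse line of lung adenocarcinoma that carried Cas9 from a lentivirus kept under puromycin selection, and all 4 samples, titled KPC cells, come from this 1 line. CRISPR activation from a second lentiviral vector used guides called dRNA against Malat1, a nuclear long noncoding RNA (group mA2 dRNA, 2 samples), or against luciferase, which mouse cells lack (group Con dRNA, 2 samples). The purpose stated for the series was to learn how raised Malat1 affects chromatin accessibility in these cells. Accessibility is not a measure of Malat1 RNA, so its activation was not checked here.

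A 3' UTR is the part of a messenger RNA after the stop codon. In the RNA it holds the polyadenylation signal and the sites bound by microRNAs and by RNA-binding proteins. ATAC-seq does not read the RNA: a transposase cuts DNA that is not wrapped tightly, so a peak here marks open chromatin over the DNA that encodes the tail of a gene. Open DNA at such a place can hold an enhancer or the start site of another transcript.

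Each value is a group mean of normalized reads as the authors computed it, and coordinates are mm10. The 4 columns of per-library values carry names that match no sample label and were not used, so no spread between libraries and no depth per library is given, and every statement on a difference rests on the authors' test. A peak counts as called, and as having risen or fallen, at an adjusted p under 0.05 by the authors' deposited table, and a fold is the ratio of the 2 group means. Of 11 lung epithelial markers, 5 had a promoter peak (Krt8, Krt18, Krt19, Cdh1 and Sftpb), while Nkx2-1, Sftpc, Napsa, Epcam, Krt7 and Cldn4 had none. All 4 mesenchymal markers had one, with a median of 423 reads in the luciferase group, against 1 of 7 leukocyte, 1 of 5 endothelial and 2 of 5 fibroblast markers. The summed reads at these promoters were 829 with the luciferase guide and 941 with the Malat1 guide for the epithelial list, and 1755 and 1998 for the mesenchymal list. They were 276 and 319 for leukocytes, 32.0 and 54.4 for endothelium, and 585 and 676 for fibroblasts. The part of other cell types in the results was not tested, and in bulk cells a change in cell composition cannot be told apart from a change per cell.

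No genome sequence was used, so letters could be read only where a peak overlapped a RefSeq promoter window (GRCm38.p6, the assembly also named mm10), which was the case for 16 of the 1990 peaks. The AP-1 recognition sequence TGANTCA, which reads the same on both strands, was present in the overlap of 2 of these 16. It is shown because 1 of them rose and the other was not called. Of all 32851 RefSeq promoter windows of 300 bases, 7.81% hold it. The stretches below are from the plus strand, with the match in capitals.
Lrp6 peak, chr6:134450924-134450953: gggcacaggttcTGAGTCAtagttcacgtc
Sfi1 peak, chr11:3136892-3136921: tcaagacacctcTGACTCAtacagagctta
The first stretch lies within Lrp6, a Wnt co-receptor, 4483 bp from its 3' end for the peak's centre, and in the promoter window of Gm52921, a predicted gene on the opposite strand. The peak, assigned to 4933406J09Rik, held 134 normalized reads in the Malat1 group and 39.9 in the luciferase group, a rise of 3.36-fold (adjusted p = 0.0160, from the authors' deposited table). The second lies within the bounds of Sfi1, a centrosome protein, and its peak held 140 and 157 reads (adjusted p = 0.970, from the authors' deposited table). A match of letters is a description and shows no bound factor.

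The gene named beside a 3' UTR peak in the deposited table was often not the gene in which the peak lay. The table assigns each peak to a gene by a start site, and 657 of the 1990 peaks (33.0%) lay upstream of the start site they were assigned to. By RefSeq gene bounds, 751 peak centres (37.7%) were inside the assigned gene and 944 were inside another protein-coding gene only. A further 263 lay outside all protein-coding bounds but within 10 kb past a 3' end, with a median of 239 bp, and 32 lay elsewhere. RefSeq bounds do not say which transcript gave the annotation, and 70 centres lay inside several genes, so the gene holding a peak can be uncertain where genes overlap or nest.

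Peaks lay toward the ends of genes, which follows from the annotation that chose them and is no independent result. For 1609 peaks inside a gene of known strand, the median distance from the peak centre to the 3' end was 1627 bp, with quartiles of 633 and 4981 bp. Of these peaks, 589 (36.6%) were within 1 kb of the end and 1207 within 5 kb, and the median peak lay 93.1% of the way along its gene. The 402 peaks farther than 5 kb from the end included 161 at more than 19.5 kb. The assigned start site was at least 1.007 kb away in all 1990 peaks, with a median of 11.9 kb. Promoter peaks form a class of their own, so the lack of peaks close to a start site also follows from the annotation. None of the 1005 microRNA hairpins in the RefSeq table overlapped a 3' UTR peak.

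**Figure D1:**
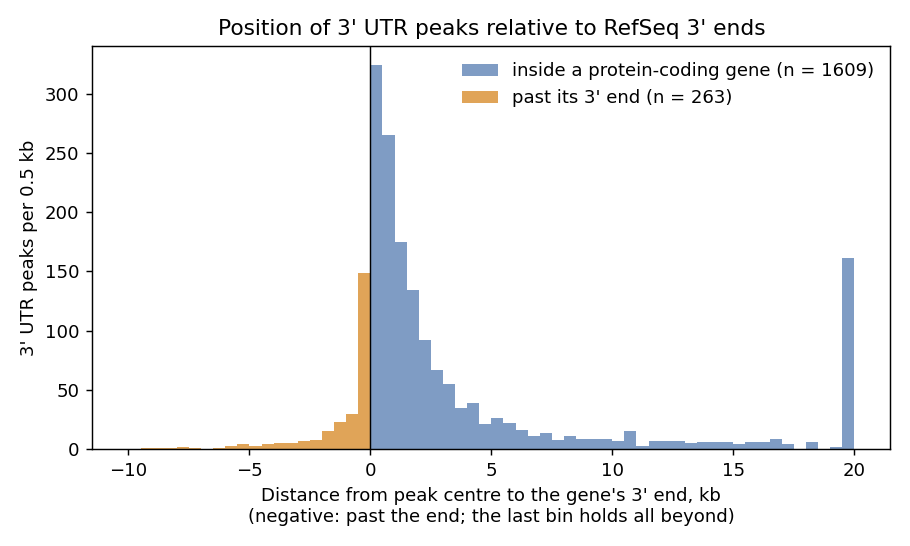
Number of 3' UTR peaks (vertical axis) by distance in kb from the peak centre to the 3' end of the RefSeq protein-coding gene (horizontal axis, bins of 0.5 kb). Blue bars are the 1609 peaks inside a gene and orange bars the 263 past its end. The peaks are densest beside the end itself, which follows from the annotation, and the last bin gathers the 161 beyond 19.5 kb.

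Few 3' UTR peaks changed. Of the 1990 peaks, 34 rose and 8 fell with the Malat1 guide, 2.11% in all, where 2.73% of all peaks were called (2.23% higher and 0.507% lower). After the differences were centred, that is shifted so that their median over all peaks, over the peaks of the chromosome or along abundance was 0, the split was 28 higher and 13 lower, 21 and 15, and 27 and 13. These were 2.06%, 1.81% and 2.01% of the 3' UTR peaks, where 2.35%, 2.05% and 2.27% of all peaks were called under the same centrings. The authors' deposited table gave 173 of them, or 8.69%, an unadjusted p under 0.05, where 11.7% of all peaks had one. The share called was 2.58% of 5275 exon peaks, 2.17% of 1888 peaks in 5' UTRs and 1.42% of 13620 promoter peaks. Introns had 3.03% and distal intergenic sequence 3.19%. These shares are set side by side without a test of their differences.

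**Figure D2:**
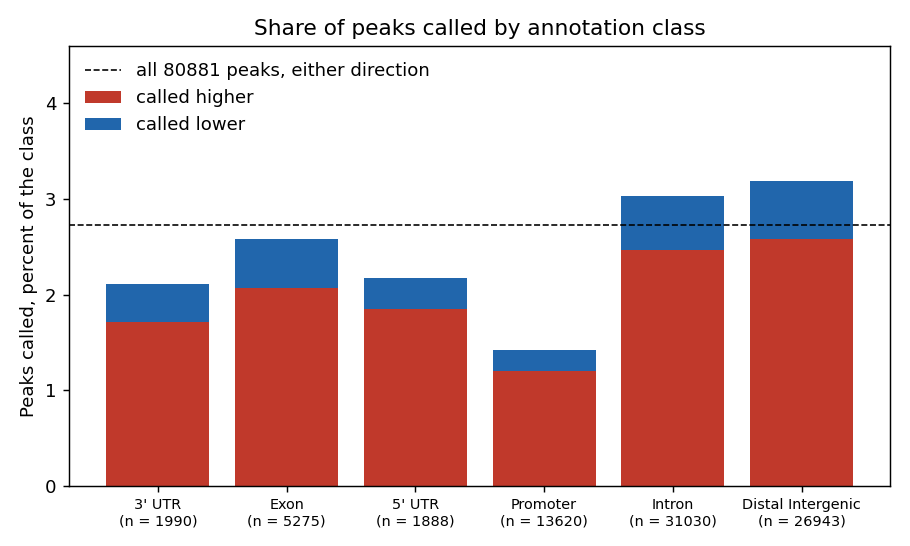
Percent of peaks called in each annotation class (vertical axis), split into higher (red) and lower (blue) with the Malat1 guide; the dashed line is the 2.73% of all 80881 peaks. The bar for 3' UTRs reaches 2.11%, between promoters at 1.42% and exons at 2.58%.

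The 3' UTR peaks were weak next to those at the start of genes. Their median level over both groups was 61.2 normalized reads, near the 63.9 of exon peaks, where promoter peaks had 272 and 5' UTR peaks 192. The levels of the 3' UTR peaks ran from 6.49 to 2131 reads. The median log2 difference, Malat1 guide minus luciferase guide, was 0.07, beside 0.09 over all peaks, and 1143 of 1990 peaks (57.4%) were higher in the mean of the Malat1 group. Once the differences were centred on the median of all peaks the median turned to -0.02. In 107 peaks the group means differed at least 2-fold, 76 of them upward and 31 downward, and 31 of those 107 were called.

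The share called was lowest in the weakest 3' UTR peaks and highest in the strongest, a difference that was not tested. Of the weakest peaks, up to 34.2 reads, 1 of 498 was called (0.201%), where 1.45% of all peaks in that range were. Of the strongest, from 128 reads, 22 of 498 were called (4.42%), where 3.28% of all peaks in that range were. The 2 ranges between them had 10 and 9 calls of 497 each, 2.01% and 1.81%, beside 2.54% and 3.43% of all peaks in the same ranges.

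**Figure D3:**
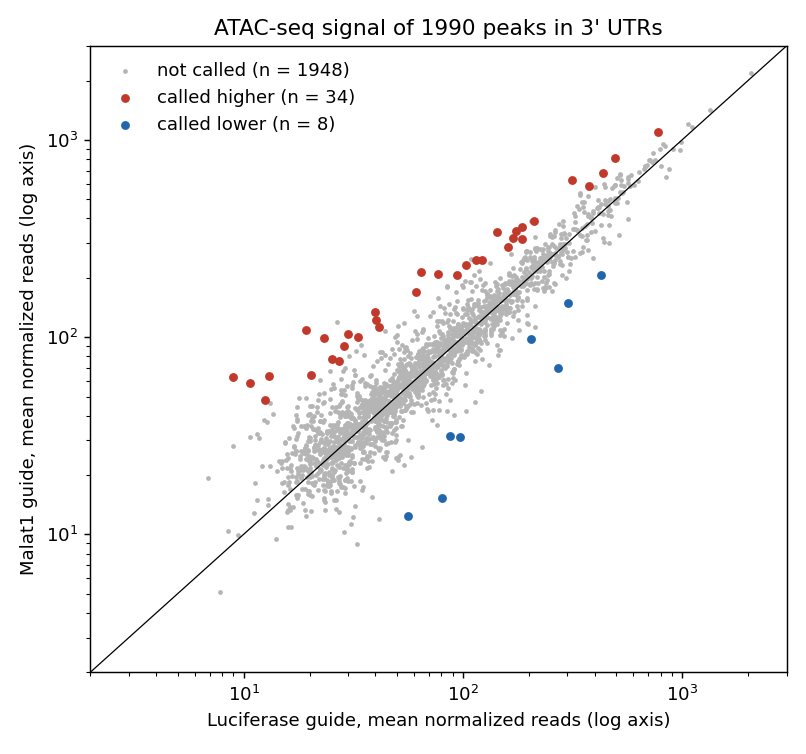
Mean normalized reads of the 1990 peaks with the luciferase guide (horizontal log axis) and the Malat1 guide (vertical log axis); the line marks equal values. The 34 peaks called higher (red) start from 8.96 reads in the luciferase group, and the 8 called lower (blue) lie below the line.

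Among the 42 called peaks, 9 of those that rose and 3 of those that fell lay inside the assigned gene. Another 18 and 4 lay inside a different protein-coding gene, 6 and 1 lay past a 3' end, and 1 that rose lay elsewhere. The share called was 1.60% of the 751 peaks inside the assigned gene and 2.33% of the 944 inside another. It was 2.66% of the 263 past an end and 3.1% of the 32 elsewhere, beside 2.11% of all 3' UTR peaks. No difference between these shares was tested. The median rise was 2.70-fold, from 1.42 to 7.01, and the median fall 2.96-fold, from 2.04 to 5.24. Over all called peaks these medians were 2.88 and 2.45. Below, most peaks are named by the gene that holds them or whose 3' end they lie past. Where the assigned gene differs, the text gives it for some peaks only. A name alone therefore does not mean that the deposited table assigned the peak to that gene. The plot of mean reads at the 42 called peaks gives the assigned gene in brackets. The order by role is for reading, and no role was tested for enrichment.

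Several of the risen peaks lay at genes of receptors and their signalling partners. Beside Lrp6, a peak within Fgfr2, a receptor of fibroblast growth factors, held 58.4 reads in the Malat1 group and 10.7 in the luciferase group, 5.44-fold higher (adjusted p = 0.0140, from the authors' deposited table). It lay 20309 bp from the 3' end and was assigned to the predicted gene Gm4265. The peak at chr15:80160176-80160576, 1331 bp from the end of Tab1, an adaptor that activates the kinase TAK1 in NF-kB signalling, was assigned to Mgat3. It held 814 and 494 reads, a 1.65-fold rise (adjusted p = 2.41e-04, from the authors' deposited table). Tab1 thus had a modest change at a strong peak, and Fgfr2 a steep change at a weak one.

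Itpr2, a calcium channel of the endoplasmic reticulum, had a peak 2986 bp from its end that rose 2.69-fold from 41.7 to 112 reads. Map4k1, a kinase upstream of the JNK pathway, had a peak that rose 3.14-fold from 28.7 to 90.1 reads. A peak 1543 bp past the RefSeq end of Socs1, an inhibitor of JAK-STAT signalling, held 586 and 376 reads, a 1.56-fold rise (adjusted p = 0.00549, from the authors' deposited table). Chromosome 16 as a whole was shifted upward, and centring on the chromosome's median ended the Socs1 call (adjusted p = 0.276, rescaled from that of the authors, with 0.0236 to 0.276 over 3 centrings).

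A peak assigned to Il34, a ligand of the CSF1 receptor on macrophages, lay 402 bp past the 3' end of Sf3b3, a subunit of the spliceosome. It is at chr8:110809889-110810289, 3.97 kb upstream of the Il34 start site, and held 341 reads in the Malat1 group and 143 in the luciferase group. The rise was 2.39-fold (adjusted p = 0.00620, from the authors' deposited table). Of 3 other peaks within 10 kb, 2 were also called higher. This is thus a peak at the end of one gene and near the start of another.

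Genes of transcription factors and their regulators made up a further group of rises. Pdx1, a homeobox factor of the pancreas, had a peak 1080 bp from its end, assigned to the transcript Plut, that rose 3.01-fold from 33.2 to 99.9 reads. All 3 other peaks within 10 kb were called higher, among them the Pdx1 promoter peak, which held 333 and 105 reads (adjusted p = 4.64e-06, from the authors' deposited table). Bhlhe41, a repressor of the circadian clock, had a peak that rose 2.01-fold to 247 reads. A peak 1011 bp from the end of Aff1, a factor of transcription elongation, rose 3.19-fold from 20.2 to 64.5 reads.

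Phox2a, a homeobox factor of neurons, held 346 and 175 reads at its peak, and Vgll4, which competes with YAP for TEAD factors, 679 and 437. These were called with adjusted p of 0.0314 and 0.0414 by the authors' deposited table, and each of 3 centrings ended both calls (0.0715 to 0.118 and 0.0828 to 0.126). A peak 3644 bp past the RefSeq end of Trim71, a let-7 target that acts on messenger RNAs, had been assigned to the chemokine receptor gene Ccr4. It lay 2.51 kb upstream of the Ccr4 start site, which is nearer than the Trim71 end. At chr9:114507424-114507824 it held 108 and 19.2 reads, a 5.63-fold rise (adjusted p = 3.96e-06, from the authors' deposited table). That was the smallest adjusted p among the 34 rises.

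Genes of vesicle traffic and degradation were also among those with a risen peak. Psd4, an activator of ARF6, had a peak 1596 bp from its end that held 214 and 64.5 reads, a 3.32-fold rise (adjusted p = 1.93e-04, from the authors' deposited table). Uso1, a tether of the Golgi, had one that rose 4.85-fold from 13.1 to 63.6 reads, assigned to U90926. Rab6b, a small GTPase of the Golgi, had one that rose 3.04-fold from 40.1 to 122 reads. In Wdr59, a regulator of mTORC1, the peak rose 2.25-fold from 104 to 234 reads.

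Rubcn, an inhibitor of autophagy, held 387 and 210 reads at a peak assigned to Smbd1, H13, an intramembrane protease, 319 and 169 at one assigned to Mcts2, and Tbc1d2b, a Rab regulator, 75.9 and 27.2 at one assigned to Adamts7. The last 3 were called, and each lost its call under at least 1 of 3 centrings (adjusted p of 0.0136 to 0.118 for Rubcn, 0.0354 to 0.0610 for H13 and 0.0495 to 0.0653 for Tbc1d2b).

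The strongest called peak lay 947 bp from the end of Cst6, an inhibitor of cysteine proteases. It held 1100 reads in the Malat1 group and 775 in the luciferase group, the smallest called rise at 1.42-fold (adjusted p = 0.00101 in the authors' deposited table). Centring by chromosome ended this call on chromosome 19 (adjusted p = 0.138, rescaled from that of the authors, with 0.00956 to 0.138 over 3 centrings). The largest fold, 7.01, came from a peak within 4930503B20Rik, which went from 8.96 to 62.8 reads.

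The remaining rises lay at genes of other roles. A peak 8 bp past the end of Polr3b, a subunit of RNA polymerase III, held 209 and 77.3 reads and was assigned to Rfx4. A peak 2690 bp past the end of Pde6h, a photoreceptor phosphodiesterase subunit, held 99.4 and 23.2 reads and was assigned to Arhgdib. Peaks within Crocc2, Lrch4 and Pnkd rose 1.93-fold, 2.16-fold and 3.05-fold. The peaks of Baalc at 1.99-fold, Hsd17b14 at 2.21-fold and Plekhs1 at 2.77-fold were called higher but lost the call under at least 1 centring (0.0158 to 0.0662, 0.0298 to 0.0512 and 0.0428 to 0.0837). So did a peak assigned to Myef2l at 1.77-fold (0.0475 to 0.114), which lay in no protein-coding gene and not within 10 kb past a 3' end. The peaks within Fut1 at 3.83-fold and Unc13a at 1.70-fold lost the call under all 3 (0.0586 to 0.0788 and 0.108 to 0.133). The same held for a peak 3840 bp past the end of Kif26b at 3.45-fold (0.0510 to 0.0773).

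Of the 8 peaks that fell, the one with the smallest p lay 357 bp from the 3' end of Crebrf, a regulator of the unfolded protein response. It is at chr17:26776080-26776480, 4.59 kb upstream of Bnip1, to which it was assigned. It held 69.5 reads in the Malat1 group and 272 in the luciferase group, 3.92-fold lower (adjusted p = 1.45e-06, from the authors' deposited table). The Crebrf promoter peak did not follow it, with 1031 and 932 reads and an adjusted p of 0.740 by the authors' deposited table.

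The steepest fall was in Adcy1, a calcium-stimulated adenylyl cyclase, where the peak held 15.4 and 80.6 reads, 5.24-fold lower (adjusted p = 0.00248 in the authors' deposited table). Aasdh, an acyl-CoA synthetase family member, had a peak with 12.3 and 56.4 reads, 4.57-fold lower. Slc38a1, a glutamine transporter, had 31.4 and 87.9 reads, 2.80-fold lower. A peak 813 bp past the end of Prrc2c, assigned to Myocos, held 31.2 and 97.1 reads.

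The other falls were close to 2-fold. Trim67, a ubiquitin ligase family member of the nervous system, held 149 and 303 reads at a peak assigned to Gnpat. Cep120, a protein of centriole assembly, held 208 and 429 reads, and Spef1l 97.9 and 205. Centring on the median of all peaks lowers every difference, so it makes falls larger by construction and says nothing of how firm they are.

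**Figure D4:**
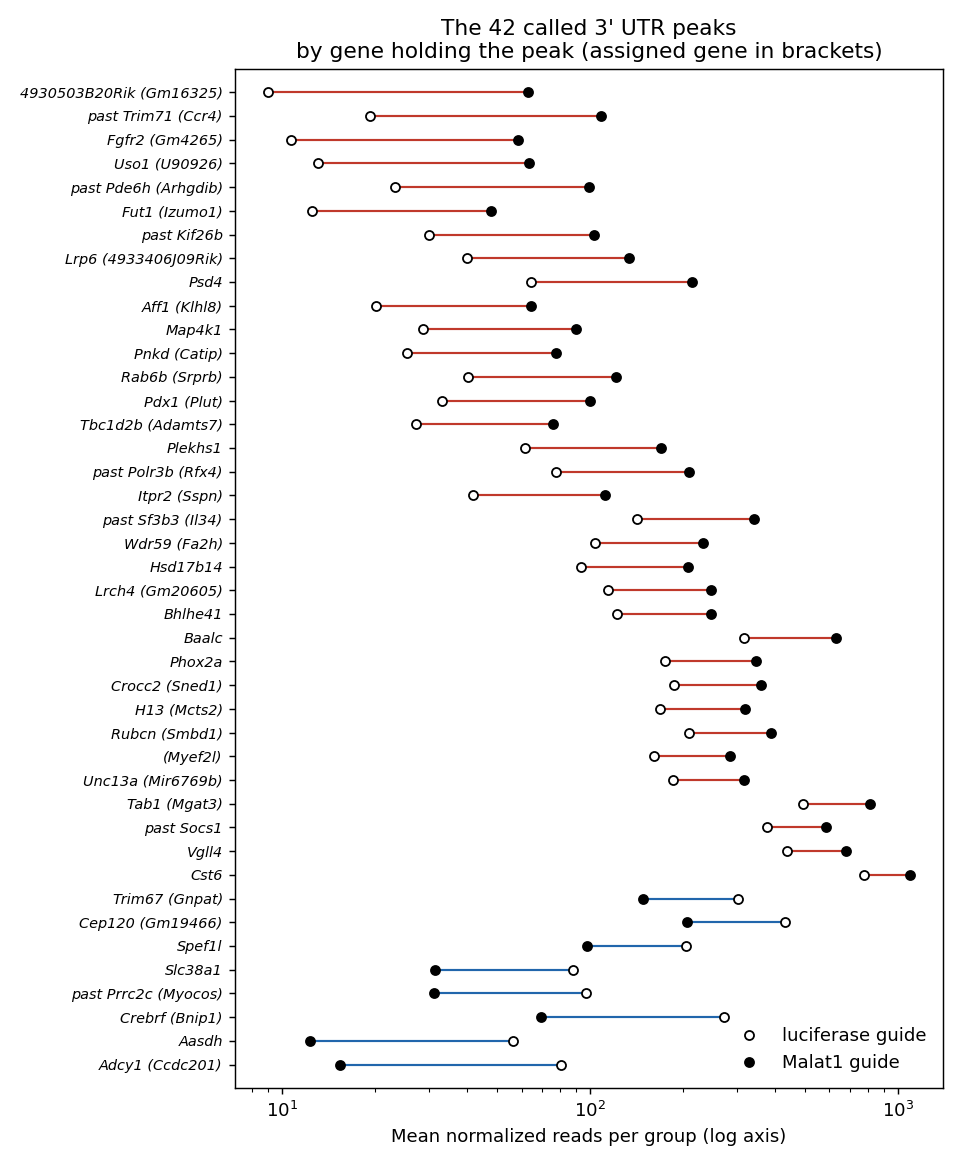
Mean normalized reads (horizontal log axis) of the 42 called 3' UTR peaks with the luciferase guide (open circles) and the Malat1 guide (filled circles), ordered by difference; the label is the gene holding the peak, or the gene whose 3' end it lies past, with the assigned gene in brackets. Red lines are the 34 rises, up to 7.01-fold, and blue lines the 8 falls, down to 5.24-fold lower.

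Nearest to the threshold on the other side were 3 uncalled peaks with the higher mean in the Malat1 group. A peak in Syt14 held 46.3 and 13.2 reads (adjusted p = 0.0519, from the authors' deposited table). Kank2, an adaptor of focal adhesions, had 3 peaks within 3305 bp of its end, all of them with the higher mean, and the leading one held 181 and 85.0 reads (adjusted p = 0.0543 in the authors' deposited table). A peak in Sobp held 91.2 and 34.2 reads, with 0.0565. The 3 called peaks nearest to the threshold were those of Unc13a and Spef1l and the one assigned to Myef2l, with 0.0423, 0.0470 and 0.0486 in the authors' deposited table.

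The 3' UTR peak and the promoter of the same gene differed in level and were weakly correlated in their differences. For 1037 genes that held 1137 of these peaks and had a promoter peak, with several 3' UTR peaks of 1 gene averaged, the median level was 62.6 reads at the 3' UTR and 330 at the promoter, and in 165 the 3' UTR peak was the stronger. Across these genes the log2 differences had a Pearson r of 0.24 and a Spearman rho of 0.26, and the levels a Spearman rho of 0.05. Genes are not independent replicates, and both differences come from the same libraries. Of 25 called 3' UTR peaks in this set, 2 had a called promoter, at Pdx1 and Itpr2, where the promoter held 707 and 484 reads (adjusted p = 0.0117 in the authors' deposited table). That is 8% of these peaks, where 23 of the 1037 promoters (2.22%) were called. The promoter mean was in the higher direction at 16 of 19 genes with a risen 3' UTR peak, with a median difference of 0.31, and in the lower direction at 4 of 6 with a fallen one, with a median of -0.03. Of all 1037 promoters, 700 (67.5%) had the higher mean and 337 the lower, and no difference between these shares was tested.

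**Figure D5:**
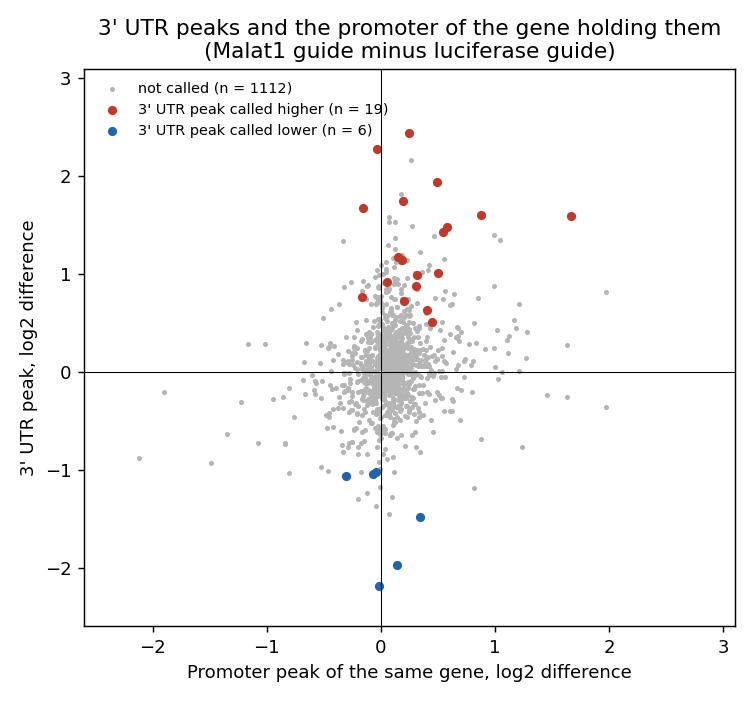
Log2 difference, Malat1 guide minus luciferase guide, of the promoter peak (horizontal axis) and of the 3' UTR peak (vertical axis) of the gene holding it, 1 point per 3' UTR peak. Red and blue points are the 19 and 6 called 3' UTR peaks in this set. Being called places them away from 0 on the vertical axis. Their median promoter differences were 0.31 and -0.03, and the red point farthest right is Pdx1.

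Most other peaks close to the called ones were not called, but calls higher were more frequent near risen peaks than near uncalled ones. Within 10 kb of the 34 risen peaks lay 61 other peaks, of which 7 were called higher and 0 lower, and these were near 4 of the 34. The median over the risen peaks of their neighbours' median difference was 0.42, against 0.08 for uncalled 3' UTR peaks. Around the 8 fallen peaks lay 9 others, none of them called by the authors' adjusted p, with a median of 0.09. Near the 1948 uncalled peaks lay 3392 others, of which 37 were higher and 4 lower. Of all 80881 peaks, 2.23% were called higher and 0.507% lower, and no difference between these shares was tested.

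Some genes held several 3' UTR peaks, and none of the following was called. Sfi1 held 6, all assigned to Pisd-ps1, with 135 to 279 reads in the luciferase group and 102 to 238 in the Malat1 group. The mean was lower with the Malat1 guide in all 6, with log2 differences from -0.39 to -0.09 and a smallest adjusted p of 0.774 by the authors' deposited table. Pdzd7 held 4, with differences from 0.12 to 0.58, Ttc3 4, from -0.47 to 0.96, and Gls2, a glutaminase, held 4, from -0.13 to 0.69. Another 4 peaks, assigned to Tyk2, a kinase of cytokine receptors, all lay past the end of Cdc37, a cochaperone; they held 81.2 to 536 reads in the luciferase group. Peaks assigned to Hic1 lay inside it or inside Smg6, with log2 differences from -0.37 to 1.53. Their smallest p was 0.0131 unadjusted and 0.204 adjusted, by the authors' deposited table. Peaks assigned to 2810414N06Rik lay inside Niban1 or past its end, with differences from -0.39 to 0.58. Their smallest adjusted p was 0.686 by the authors' deposited table. Of the 1779 assigned genes, 183 had more than 1 3' UTR peak.

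None of the 5 strongest 3' UTR peaks was called. A peak 650 bp from the end of Lars2, the mitochondrial leucyl-tRNA synthetase, held 2195 reads in the Malat1 group and 2067 in the luciferase group. Anxa5, an annexin, held 1425 and 1338, and Ccdc97 1208 and 1071. A peak past the end of Stau2, a double-stranded RNA binding protein, held 1158 and 1112, and Itga10, an integrin subunit, 980 and 987. Their adjusted p ran from 0.718 to 0.997 in the authors' deposited table.

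Of the 42 called peaks, 4 were assigned to a listed gene or lay inside one. On 17 lists with 631 genes, 105 of the 3' UTR peaks were assigned to a listed gene or lay inside one. Of these, 4 were called higher and 0 lower (3.81%, beside 2.11% of all 3' UTR peaks and 2.73% of all peaks), namely the Tab1, Il34, Socs1 and Fgfr2 peaks, each on 1 of 4 lists, and 66 had the higher mean, with a median difference of 0.11, beside 0.07 over all 3' UTR peaks. The other 13 lists had no such peak under an adjusted p of 0.05 by the authors' deposited table. A peak past a 3' end could enter a list only through its assigned gene. The called peak past the end of Trim71 therefore could not count under Trim71. Each list is given by the gene a peak was assigned to and by the gene holding it, since the calls and medians of some lists differ between these.

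Cytokines and chemokines had 13 assigned peaks at 10 genes, 1 of them called, and 12 with the higher mean, with a median difference of 0.31. Inside their genes were 6 peaks, 0 of them called, with a median of 0.37. Besides Il34, a peak in Med24 assigned to Csf3, the granulocyte growth factor, held 389 and 287 reads (adjusted p = 0.294 in the authors' deposited table). Csf1, a growth factor of macrophages, held 248 and 189 at a peak inside the gene, and Cxcl12, the ligand of Cxcr4, 94.0 and 73.8. AU-rich elements in a 3' UTR shorten the life of the RNA. A mixed list of immediate early transcripts and transcripts known for such elements had 12 assigned peaks at 10 genes. Of these, 0 were called and 0 had an unadjusted p under 0.05, with a median of 0.28. The list had 8 peaks inside its genes, 0 called, with a median of 0.26. Klf6, an early response factor, held 79.2 and 61.7 reads at one of them.

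NF-kB and inflammatory signalling had 7 peaks inside listed genes, with 1 called at Tab1 and a median difference of 0.17, and 4 assigned peaks, with 0 called, 1 at an unadjusted p under 0.05 and a median of 0.38. A peak within Tnfrsf8 that was assigned to Tnfrsf1b, a TNF receptor, held 574 and 377 reads and was not called (adjusted p = 0.0612 in the authors' deposited table). Proteins that bind 3' UTRs or silence messages had 8 peaks inside their genes, 0 called, 2 with an unadjusted p under 0.05 and 2 with the higher mean, with a median of -0.21, and 6 assigned peaks with 0 called and a median of -0.17. Within Ago2, the slicer of microRNA-guided silencing, a peak held 84.8 and 32.8 reads (adjusted p = 0.120, from the authors' deposited table). At Stau2 a second peak went the other way in its means, with 144 and 214 reads and 0.407.

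Mesenchymal regulators had 5 assigned peaks, matrix and protease genes 6 and adhesion genes 3, of which 0 were called by the authors' adjusted p and 2 had an unadjusted p under 0.05 in the deposited table. Their median differences were 0.29, 0.28 and 0.61. By the gene holding the peak there were 3, 6 and 4 peaks, again with 0 called, and the medians were 0.19, 0.28 and 0.04. A peak assigned to Axl, a receptor kinase of mesenchymal tumour cells, lay past the end of Cyp2s1 and held 248 and 109 reads (adjusted p = 0.0625 in the authors' deposited table). Ski, a repressor of TGF-beta signalling, held 84.0 and 42.1 (adjusted p = 0.434 by the authors' deposited table). Interferon and antigen presentation genes had 9 assigned peaks, 1 of them called, with a median of 0.21, and 3 peaks inside their genes, with 0 called and a median of 0.04. Chromatin regulators had 12 peaks inside their genes, 0 called and 0 with an unadjusted p under 0.05, with a median of -0.04, and 6 of the 12 had the higher mean, while their 4 assigned peaks had 0 called and a median of 0.08. Growth signalling genes had 9, with 1 called at Fgfr2 and a median of 0.04, and 3 assigned peaks with 0 called and a median of 0.28. Housekeeping genes had 5 assigned peaks, 0 called and 1 with an unadjusted p under 0.05, with a median of -0.03, and 1 inside a listed gene, at 0.05. The p53 and cell cycle list had 4 assigned peaks and the epithelial list 2, and both had 0 inside their genes, with medians of -0.04 and -0.07 and 0 called. The lists of let-7 targets and oncofetal genes, of cleavage and polyadenylation factors, and of endothelial and fibroblast markers had 2 peaks each inside their genes. In that order the medians were 0.15, -0.04 and -0.07, and each list had 1 assigned peak, at 0.17, 0.23 and 0.13. Leukocyte markers had 0 assigned peaks and 1 inside a gene, at Spi1, with 330 and 342 reads and a difference of -0.05. In these lists 0 peaks were called.

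The called peaks were on 15 of the 20 chromosomes that held 3' UTR peaks. The median difference of 3' UTR peaks by chromosome ran from -0.13 on chromosome 18 to 0.20 on chromosome 16, and was 0.17 on chromosome 19 and 0.19 on chromosome 15. Over all peaks the same chromosomes had -0.02, 0.26, 0.20 and 0.21. Chromosome 6 held 5 rises among 112 3' UTR peaks and chromosome 7 held 5 among 194. Chromosome 11 had 188 3' UTR peaks with 0 rises and 1 fall. On all chromosomes together 1.71% of 3' UTR peaks rose and 0.402% fell, beside 2.23% and 0.507% of all peaks. These chromosomes were picked out of the 20, the counts are small, and no difference between chromosomes was tested.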

How the data were processed

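The submitters' processing notes give mm10 and, without versions, Bowtie2, MACS2, DiffBind, ChIPseeker, FastQC, Picard and deepTools. For read filters, library normalization, the test and the transcript set behind the annotation, details were not given in the sources used here. Per the file headers, the authors deposited for each peak the log2 mean normalized reads per group and over both groups, a log2 fold, a p-value, an adjusted p-value and the distance to a start site. That fold is closer to 0 than the difference of the authors' means (median ratio 0.78 over called members and 0.09 over others), so ratios of means are printed. The columns dmA12 and dLuc were taken as mA2 dRNA and Con dRNA because the series holds 1 contrast. The 4 columns of per-library values match no label and were not used, so the planned fits per library were not run.

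The adjusted p matched a Benjamini-Hochberg adjustment over all peaks within 7.40e-06. Gene bounds came from RefSeq GRCm38.p6 (1989 of 1990 gene identifiers matched). Strand came from RefSeq promoter windows or, where missing, from deposited distances, and the sources gave the same strand for 99.3% of 10870 genes. Centring subtracted the median of all peaks, of the chromosome or along abundance, rescaled each peak's normal score and readjusted p (Python 3.11.15, scipy 1.17.1). Only the centring on the median of all peaks was run on simulated data, with a uniform shift and the normal noise that the rescaling assumes. The centrings by chromosome and along abundance were not simulated.

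The annotation class to describe and the lists were chosen with earlier results of these data known. The peaks to name were up to 15 called per direction with the smallest p outside predicted genes, those of the 5 assigned genes with most peaks, and the 5 strongest peaks. To these came up to 3 genes per list, the 3 nearest to the threshold on each side and the promoters of called genes. Not every list gene or promoter so chosen is printed. The remaining called peaks, and Kank2, Pdzd7, Ttc3 and Gls2 as genes with several peaks, were named after their values were seen.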

Additional observations from a re-analysis of the deposited data

How the results depend on the processing

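No paired analysis was possible because the per-library columns carry no sample label, and for the same reason no library was left out and no count model, other library scaling or depth was used. Against 34 rises, the count was 18 at an adjusted p under 0.01, 21 with differences centred by chromosome and 19 with peaks 10 kb or more from the assigned start site. The last setting only leaves out nearer peaks, so its lower count is no loss of calls. Of 701 peaks at 10 to 30 kb 10 rose (1.43%), and of 410 farther out 9 (2.20%), beside 1.71% of all 3' UTR peaks. The cut at 0.01 is stricter and can only lower the count. Against 8 falls, it was 5 at an adjusted p under 0.01, 14 under 0.1, 13 with centring on the median of all peaks, 15 by chromosome and 13 along abundance. Rises made up 81.0% of the calls, and 68.3%, 58.3% and 67.5% under these 3 centrings, beside 81.5% of all called peaks and 68.9%, 71.0% and 69.6%. The median difference of 0.07 became 0.0062 with the authors' log2 fold, 0.0805 for peaks 10 kb or more from the start site, and -0.0205, -0.0339 and -0.0341 after centring on all peaks, by chromosome and along abundance; the cause was not tested beyond the shift each centring removes. Of the 34 rises 20 kept their call under all 3 centrings, 14 lost it under at least 1 and 5 under all. The centring on all peaks enlarges falls by construction, so it is no test of them. Minimum reads of 20 or 50, a log2 difference of at least 1, leaving out predicted genes and counting genes left both counts within 1.5 times.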
